A study of Mus musculus with 6 samples.

Results

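The Clcn5 intronic cluster is a run of 5 microRNA (miRNA) genes on the mouse X chromosome: Mir532, Mir188, Mir362, Mir501 and Mir500. It was taken up because its member mmu-miR-188-5p (miR-188-5p below) was higher in fibrotic liver on these same arrays, and the question is whether the other products of the cluster followed it. Members were all mouse probes of the array named miR-188, miR-362, miR-500, miR-501 or miR-532, on either arm of the hairpin. This gave 10 mature miRNAs of the 1247 on the array, the 5p and the 3p arm of each gene. The samples were livers of male C57BL/6 mice, 3 per group and 1 array per liver. The CCl4 group received carbon tetrachloride, a liver toxin that causes fibrosis on repeated dosing, at 0.6 mL/kg in corn oil by intraperitoneal injection 2 times a week for 10 weeks, starting at 7 weeks of age. The corn oil group received the same volume of corn oil. Livers of both groups were taken 48 h after the last injection, and no group carried a genetic change.

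A miRNA gene is transcribed into a longer RNA in which the miRNA lies in a hairpin. The hairpin is cut out and yields a duplex of its 5p and 3p arms, of which commonly 1 arm is kept in the silencing complex and the other is degraded. Bases 2 to 8 of the mature miRNA, the seed, pair with target mRNAs. miRNA genes that lie close together on 1 strand can be transcribed as a single RNA, and those inside an intron can be released from the transcript of the host gene, here Clcn5, which encodes a chloride and proton exchanger of endosomes. The array measured mature miRNAs only, so neither the primary transcript nor Clcn5 mRNA was measured.

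In the RefSeq annotation of GRCm38.p6 the 5 hairpins lie on the minus strand of chromosome X, all inside the span of Clcn5, over 10815 bases. In 5′ to 3′ order they are Mir532 at chrX:7248402-7248497, Mir188 at chrX:7247989-7248056, Mir362 at chrX:7241982-7242046, Mir501 at chrX:7241243-7241351 and Mir500 at chrX:7237683-7237774. Mir532 and Mir188 are separated by 345 bases and Mir362 and Mir501 by 630 bases, whereas 5942 bases lie between Mir188 and Mir362 and 3468 bases between Mir501 and Mir500. Mature sequences from RefSeq were matched for 9 of the 10 members, all except miR-532-5p. They are shown because several products of the cluster are close relatives, which bears on how far the probes of 1 member report on that member. Capitals mark the seed.
miR-188-5p: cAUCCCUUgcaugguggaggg
miR-188-3p: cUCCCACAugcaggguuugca
miR-362-5p: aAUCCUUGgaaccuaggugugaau
miR-362-3p: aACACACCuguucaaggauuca
miR-501-5p: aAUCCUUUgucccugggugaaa
miR-501-3p: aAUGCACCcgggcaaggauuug
miR-500-5p: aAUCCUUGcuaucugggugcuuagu
miR-500-3p: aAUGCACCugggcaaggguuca
miR-532-3p: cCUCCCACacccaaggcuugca
miR-500-3p and miR-501-3p share the seed AUGCACC, and miR-362-5p and miR-500-5p share AUCCUUG. The seed of miR-188-5p, AUCCCUU, was found in no other member and on no other array miRNA with a matched sequence. Over the 22 bases of miR-500-3p and miR-501-3p, 18 were the same, and the substitutions from miR-500-3p to miR-501-3p, counted from the 5′ end, were U9C, G18A, C21U and A22G. miR-500-3p and miR-362-3p had 17 of 22 bases in common. Cross-hybridization between such relatives was not tested. The hairpin of Mir188 follows, with both mature arms in capitals, since its 5p arm was detected on all 6 arrays and its 3p arm on none.
Mir188: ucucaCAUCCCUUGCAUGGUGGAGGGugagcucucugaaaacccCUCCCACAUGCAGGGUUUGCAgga

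The arrays differed in ways that touch every value below. The scanner software detected 186 to 193 of the 1247 miRNAs on the corn oil arrays, 245 and 227 on CCl4 replicates 1 and 2, and 334 on CCl4 replicate 3. Rank correlations across the 166 miRNAs detected on all 6 arrays, which are not independent replicates, were at least 0.985 within the corn oil group and 0.979 between CCl4 replicates 1 and 2, but 0.860 and 0.856 for CCl4 replicate 3 with the other CCl4 arrays. The hepatocyte miRNA miR-122-5p had total signals of 17855, 16613 and 18345 on the corn oil arrays, 13110 and 15544 on CCl4 replicates 1 and 2, and 2158 on CCl4 replicate 3. The summed signal of 5 hepatocyte miRNAs was 18947 to 20847 in corn oil, 14955 to 17730 on CCl4 replicates 1 and 2, and 2750 on CCl4 replicate 3. For 5 leukocyte miRNAs the same sums were 63.8 to 74.7, 319 to 445 and 395. For the 4 mesenchymal miRNAs on the array they were 60.1 to 97.8, 215 to 507 and 920, and for 2 endothelial miRNAs 563 to 677, 821 to 824 and 3732. For 2 erythroid miRNAs they were 466 to 754, 315 to 730 and 2135. For 4 brain and neuroendocrine miRNAs they were 9.65 to 10.9, 9.87 to 13.5 and 1760, with miR-9-5p detected on no array. These sums were not scaled between arrays, and the summed signal of all detected miRNAs was 316413 on CCl4 replicate 3 against 167865 to 177351 on the other arrays. The third CCl4 array therefore stood apart from the other liver arrays, and results are given with and without it. The part of these differences in the results below was not tested. The 6 arrays shared 1 slide, on which row 1 held the CCl4 livers and row 2 the corn oil livers, so position and treatment cannot be told apart. In whole-liver RNA, fewer cells of a type and less RNA per cell cannot be told apart either.

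Of the 10 members, 3 were detected on all 6 arrays (miR-188-5p, miR-362-3p and miR-500-3p), and miR-532-5p was detected on 4. miR-532-3p was detected on 2 arrays, miR-362-5p on 1, and miR-188-3p, miR-500-5p and both arms of miR-501 on none. By array, 3, 3 and 4 members were detected in corn oil and 4, 5 and 6 in CCl4. Each member had 40 spots on an array. The main comparison took the 166 miRNAs with the detection flag set on every array, on the log2 scale after quantile normalization of total signals, and a miRNA was called at a limma adjusted p under 0.05 with a fold change over 2. By that rule 20 of 166 miRNAs, 12.0%, were called, and 12 of them, 7.23%, were higher in CCl4. The split depended on the scaling, since all 22 calls under 75th percentile scaling over all miRNAs and all 18 without normalization were higher in CCl4. On every array but CCl4 replicate 3, 14.9% to 19.6% of miRNAs were detected. The 75th percentile over all miRNAs was there the lowest detected signal, given to undetected miRNAs, and not a level of expressed miRNAs. Of the 3 members that could enter it, miR-188-5p was the 1 called, and since that call is why the cluster was chosen nothing is read from it.

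**Figure D1:**
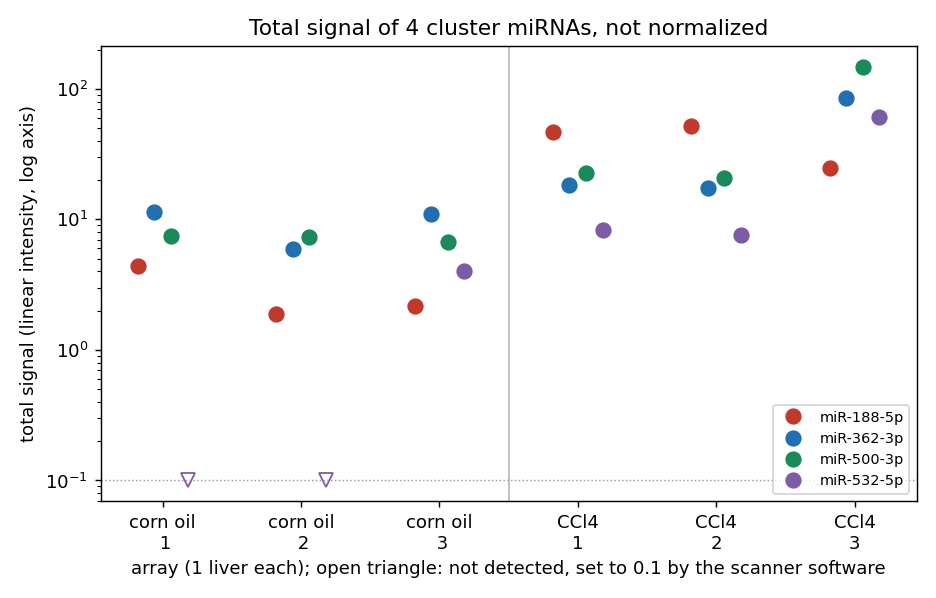
Total signal (linear intensity on a log axis, not normalized) of miR-188-5p, miR-362-3p, miR-500-3p and miR-532-5p on each of the 6 arrays, 1 liver per array. Filled points are detected and open triangles are undetected values that the scanner software sets to 0.1. miR-188-5p is lower on CCl4 replicate 3 (24.6) than on CCl4 replicates 1 and 2 (46.6 and 51.6), while the other 3 miRNAs are highest on CCl4 replicate 3.

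miR-188-5p, the member by which the cluster was chosen, is described here without a test. Corn oil livers gave total signals of 4.36, 1.90 and 2.17, and CCl4 livers 46.6, 51.6 and 24.6. The groups did not overlap, as was so in that direction for 105 of the 166 miRNAs (63.3%). The lowest CCl4 value was 5.65 times the highest corn oil value. All CCl4 totals lay above those of corn oil before normalization, but the third gave 0.502 times the mean of the other 2. The share of its spots well above background was 7.5%, 0% and 7.5% in corn oil and 100%, 100% and 95% in CCl4, so the corn oil level was a bound rather than a measured level. After normalization the mean was 1.90 ± 0.31 in corn oil and 4.75 ± 1.25 in CCl4 on the log2 scale (SD, n = 3 each), a difference of 2.85, or 3.33 without CCl4 replicate 3. The values were 2.26, 1.72 and 1.72 in corn oil and 5.24, 5.68 and 3.33 in CCl4. The value 1.72 is the one that quantile normalization gave to the lowest rank. The corn oil SD thus does not measure the spread between livers, and the size of the difference depends on that lowest value. Set against the lowest signal that was well above background, the CCl4 mean was 1.78-fold higher, or 2.91-fold higher without CCl4 replicate 3. These folds compare means and carry no sampling error, so they are not lower limits.

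The size of this difference depended on how the scanner software forms a total signal. The array carried 4 probes for miR-188-5p, and the total matched the sum of those probes that were detected on the array: 2, 1 and 1 in the corn oil livers and 4 in each CCl4 liver. Summed over all 4 probes, detected or not, the signals were 7.50, 6.06 and 7.47 in corn oil and 46.6, 51.6 and 24.6 in CCl4. The groups still did not overlap, as for 67.0% of the 215 miRNAs detected throughout at least 1 group. The lowest CCl4 value was then 3.28 times the highest corn oil value. The normalized difference was 1.65 in place of 2.85. Normalized sums were 3.17 on each corn oil array and 5.25, 5.68 and 3.51 in CCl4, so the third CCl4 array lay little above corn oil. The equal corn oil values came from equal ranks in quantile normalization and do not show the spread between livers. With these sums 0 of the 3 members passed the rule for a call at adjusted p under 0.05 in limma, and 14 of 166 miRNAs did. Without CCl4 replicate 3 the difference with these sums was 2.12, and 1 of the 3 members, miR-188-5p itself, was called, among 25 of 166 miRNAs. As the cluster was chosen for its change, nothing is read from whether miR-188-5p was called. Each of the 4 probes read higher on all CCl4 arrays than on any corn oil array, and each read lower on CCl4 replicate 3 than on the other CCl4 arrays.

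miR-188-3p, the other arm of the hairpin printed above, did not accompany it. Its detection flag was unset and 0 of its 40 spots were well above background on every array. In the fit over all 1247 miRNAs, which used background-corrected spot signals and needed no detection, its change was -0.03 on the log2 scale (95% confidence interval -0.06 to 0.01, limma adjusted p = 0.50). An offset of 50 added in that fit draws the changes of dim miRNAs towards 0, and the described change of miR-188-5p was 0.40 there, with overlapping groups, as CCl4 replicate 3 (6.37) lay below the corn oil arrays (6.54 to 6.59). Absence of the second arm was common on these arrays. Outside the cluster, 108 hairpins had 1 arm on all arrays and a probe for the other, and the other arm was on no array for 76 of them (70.4%) and on all arrays for 8 (7.41%). In the cluster, 3 hairpins had 1 arm on all arrays, and the other arm was on no array for miR-188 and miR-500 and on 1 array for miR-362.

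**Figure D2:**
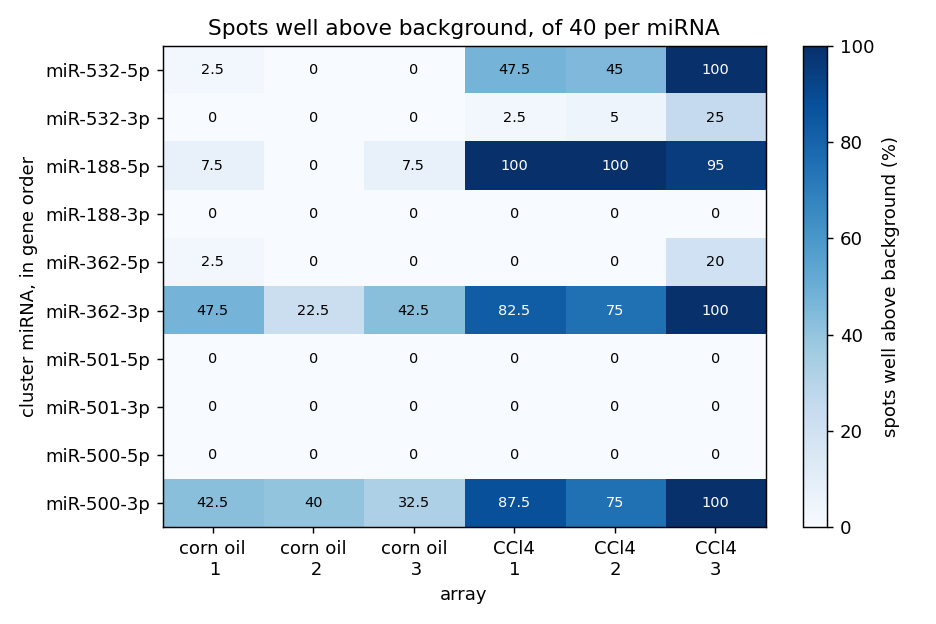
Percent of the 40 spots of each of the 10 cluster miRNAs that were flagged well above background, by array, with the miRNAs in gene order. miR-188-5p, miR-362-3p and miR-500-3p are at 75% or more on each CCl4 array, miR-532-5p is at 47.5%, 45% and 100%, and miR-188-3p, miR-500-5p and both miR-501 arms are at 0 throughout.

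miR-362-3p, whose gene lies 5942 bases from Mir188, had higher total signals in CCl4 than in corn oil, with its highest value on the array where miR-188-5p was lowest of the CCl4 group. Its total signal was 11.4, 5.94 and 10.97 in corn oil and 18.4, 17.4 and 84.8 in CCl4. The groups did not overlap before normalization, and neither did those of 105 of the 166 miRNAs in the same direction, 63.3%. After normalization they did overlap, with 4.21, 3.39 and 3.89 in corn oil and 3.97, 4.14 and 4.93 in CCl4. The difference of the means, 3.83 ± 0.42 and 4.35 ± 0.51 (SD, n = 3 each), was 0.52 with a standard error of 0.35 (95% confidence interval -0.35 to 1.38, limma adjusted p = 0.36) and did not pass the test. Without CCl4 replicate 3 it was 0.22 (adjusted p = 0.53). The share of its spots well above background was 47.5%, 22.5% and 42.5% in corn oil and 82.5%, 75% and 100% in CCl4. With all corn oil arrays at or under 50% of spots, its CCl4 mean was 1.25-fold higher against the floor, or 1.02-fold without CCl4 replicate 3. This is no lower limit, since the confidence interval given above also allowed a lower CCl4 level. Its own corn oil signal lay under the floor on 2 corn oil arrays.

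Its 5p arm, miR-362-5p, was detected on CCl4 replicate 3 alone, at 7.96 with 8 of 40 spots well above background. The 8 spots compare with 1 of 40 on corn oil replicate 1 and 0 on each other array. In the fit over all miRNAs it changed by 0.03 (95% confidence interval -0.02 to 0.07, limma adjusted p = 0.56).

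miR-500-3p, from the last gene of the run, had a larger change than miR-362-3p, the other neighbour in the main comparison. Its total signal was 7.40, 7.38 and 6.72 in corn oil and 22.8, 20.8 and 148 in CCl4. The corn oil values lay close together, the lowest CCl4 value was 2.82 times the highest of them, and the third CCl4 array was 6.79 times the mean of the other 2. The normalized groups did not overlap, which held for 24 of 166 miRNAs in that direction, 14.5%. Normalized means were 3.40 ± 0.26 and 4.72 ± 0.74 (SD, n = 3 each), a difference of 1.32 with a standard error of 0.40 (95% confidence interval 0.30 to 2.33). The limma adjusted p was 0.094, so it did not pass. Its unadjusted limma p was 0.020, and 9.64% of miRNAs were higher in CCl4 with an unadjusted p under 0.05 and a fold over 2. Without CCl4 replicate 3 the difference was 0.84, under a 2-fold change, with a limma adjusted p of 0.015. At an adjusted p under 0.05 and any fold, 18.7% of miRNAs were higher in that fit. Under 75th percentile scaling over all miRNAs, set by the lowest detected signal on all arrays but CCl4 replicate 3, miR-500-3p was called. It stood at 2.02 with a limma adjusted p of 0.023. In that fit 13.3% of miRNAs were called, all of them higher, and the median change was 0.48. Over 18 alternatives the limma adjusted p of miR-500-3p ranged from 0.011 to 0.39. Its corn oil spots were 42.5%, 40% and 32.5% well above background and its CCl4 spots 87.5%, 75% and 100%. Against the floor its CCl4 mean was 1.74-fold higher, or 1.30-fold without CCl4 replicate 3, again with no sampling error. With all probes summed, its normalized difference was 0.97 (limma adjusted p = 0.17), or 0.52 without CCl4 replicate 3 (limma adjusted p = 0.011), under a 2-fold change.

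Its 5p arm, miR-500-5p, had 0 spots well above background on every array. In the fit over all miRNAs it changed by -0.02 (95% confidence interval -0.05 to 0.01, limma adjusted p = 0.51).

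miR-532-5p, from the gene closest to Mir188, was at the edge of detection in the corn oil livers and entered no fit that required all arrays. It was not detected on corn oil replicates 1 and 2, was 4.02 on corn oil replicate 3, and was 8.34, 7.66 and 60.8 on the CCl4 arrays. With both of its probes summed, detected or not, the corn oil signals were 4.57, 4.76 and 5.92 and the CCl4 signals 11.2, 9.95 and 60.8. The groups did not overlap on either measure, nor did those of 67.0% of the 215 miRNAs detected throughout at least 1 group, and the lowest CCl4 sum was 1.68 times the highest corn oil sum. The share of its spots well above background was 2.5%, 0% and 0% in corn oil and 47.5%, 45% and 100% in CCl4, so CCl4 replicates 1 and 2 also fell short of 50%. miR-532-5p passed the filter of a fit of these 215 miRNAs through the CCl4 group alone. Its values on corn oil replicates 1 and 2 were set there to the lowest detected signal of each array, 1.90. In that fit, in which 14.9% were called and 7.44% were higher in CCl4, it differed by 0.91 with a standard error of 0.68 (95% confidence interval -0.80 to 2.62, limma adjusted p = 0.38). Without CCl4 replicate 3 the difference in that kind of fit was 0.14 (limma adjusted p = 0.81). With corn oil values set in this way, neither fit is a test of this miRNA.

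miR-532-3p was faint. It was detected at 2.06 on CCl4 replicate 2, with 2 of 40 spots well above background, and at 9.88 on CCl4 replicate 3, with 10 of 40 spots. Its change in the fit over all miRNAs was 0.01 (95% confidence interval -0.02 to 0.04, limma adjusted p = 0.69).

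miR-501-5p and miR-501-3p were not well above background in either group. Together with miR-188-3p and miR-500-5p they had 0 of 960 spots well above background over the 6 arrays, and their median background-subtracted spot signals lay between -3.95 and 0.206. In the fit over all miRNAs miR-501-3p changed by 0.02 (95% confidence interval -0.02 to 0.05, limma adjusted p = 0.61). miR-501-5p changed by 0.02 as well (95% confidence interval 0.00037 to 0.05, limma adjusted p = 0.37), with an unadjusted p of 0.048, a level that 13.4% of all miRNAs reached. miR-501-3p stayed undetected on CCl4 replicate 3, where miR-500-3p, with which it shares its seed and 18 of 22 bases, read 148. However, 1 of the 4 probes of miR-501-3p read 2.31 on that array, against -0.33 to 0.15 on the others, with 0 spots well above background.

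Over all 9 members other than miR-188-5p, 0 were called in the fit over all miRNAs by limma, in which 4 of 1247 (0.321%) were called, and 1 of the 9 had an unadjusted p under 0.05. The smallest adjusted p among the 9 was 0.37. The offset left little room for a 2-fold change in miRNAs this dim, so the count of 0 does not show that they were unchanged. The 6 members detected on at most 2 arrays changed by -0.03 to 0.03 in that fit. With 75th percentile scaling in place of quantile normalization the 9 changed by -0.88 to -0.04, the smallest adjusted p was 0.0028 and miR-188-5p stood at -0.18, but the median of all 1247 miRNAs was then -0.85 and 88.9% of them were lower at an adjusted p under 0.05. By spots, 2 of the 9, miR-362-3p and miR-500-3p, had over 50% of their spots well above background on all CCl4 arrays and at most 50% on every corn oil array, as did 1.68% of all 1247 miRNAs. The spot shares of the groups did not overlap for 4 of the 9, those 2 and both arms of miR-532, against 5.77% of all miRNAs. These shares were counted before any scaling between arrays, on arrays of which the CCl4 group had more miRNAs detected. The shares over all 1247 miRNAs include many without signal, as at most 334 were detected on any array. By total signal, 67.0% of the 215 miRNAs detected throughout at least 1 group did not overlap, with CCl4 above.

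The third CCl4 array separated miR-188-5p from its neighbours. Before normalization, CCl4 replicate 3 lay below both other CCl4 arrays for miR-188-5p, as for 12.7% of the 166 miRNAs, and above both for miR-362-3p and miR-500-3p, as for 83.7%. Relative to the mean of CCl4 replicates 1 and 2 the log2 difference was -0.99 for miR-188-5p, 2.24 for miR-362-3p and 2.77 for miR-500-3p, and the median miRNA stood at 1.36. The direction of the neighbours was thus that of most miRNAs. After normalization, with the median of all miRNAs at -0.05, the differences were -2.13, 0.87 and 1.28, which placed miR-188-5p at rank 158 from the top of 166, miR-362-3p at rank 39 and miR-500-3p at rank 26. The probes of each miRNA moved together, since CCl4 replicate 3 read highest among CCl4 arrays on both probes of miR-362-3p, miR-500-3p and miR-532-5p and lowest on all 4 probes of miR-188-5p.

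**Figure D3:**
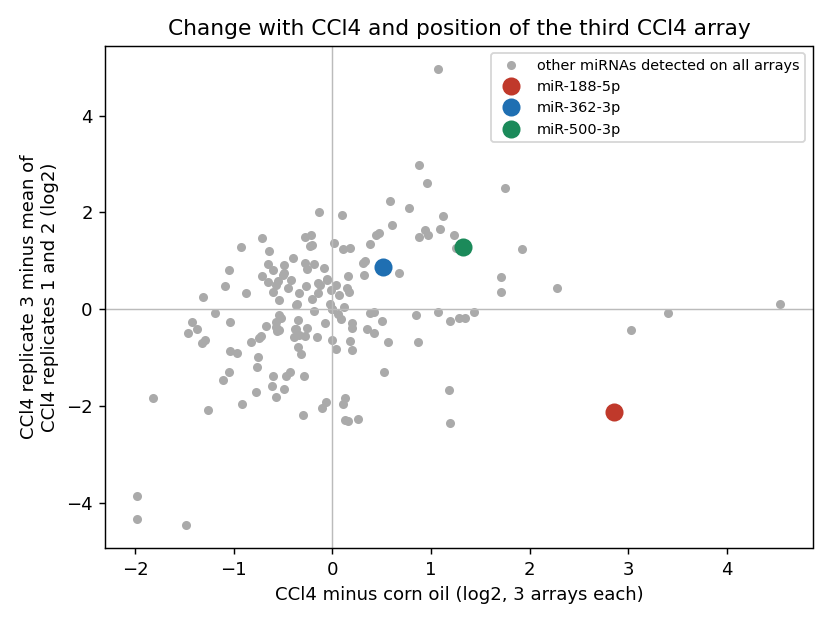
Each point is 1 of the 166 miRNAs detected on all arrays, plotted by its normalized log2 difference of CCl4 minus corn oil (x axis) and of CCl4 replicate 3 minus the mean of CCl4 replicates 1 and 2 (y axis). miR-188-5p lies at 2.85 and -2.13, whereas miR-362-3p (0.52 and 0.87) and miR-500-3p (1.32 and 1.28) lie above 0 on both axes.

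Ratios of 2 members on the same array are free of the scaling between arrays. The probes differ, so such a ratio can be followed from array to array but says nothing about which miRNA is more abundant. In corn oil, miR-188-5p was well above background at 7.5% of its spots or fewer and miR-362-3p and miR-500-3p at 47.5% or fewer, so the corn oil ratios are formed from signals near background and are not measured levels. The log2 ratio of miR-188-5p to miR-362-3p was -1.39, -1.64 and -2.34 in corn oil, 1.34 and 1.56 on CCl4 replicates 1 and 2, and -1.78 on CCl4 replicate 3. With all probes summed the corn oil ratios were -0.61, -0.64 and -0.56 and the CCl4 ratios as before. Where the third CCl4 array stood relative to corn oil thus depended on how the signal was formed, while it stood apart from the other CCl4 arrays either way. The ratio of miR-188-5p to miR-500-3p was -0.76, -1.96 and -1.63 in corn oil, 1.03 and 1.31 on CCl4 replicates 1 and 2, and -2.59 on CCl4 replicate 3. The ratio between the neighbours, miR-500-3p to miR-362-3p, was -0.63, 0.31 and -0.71 in corn oil and 0.31, 0.26 and 0.81 in CCl4. It overlapped between the groups (exact permutation test, two-sided, p = 0.3, where 3 against 3 arrays allow no p below 0.1). With all probes summed it did not overlap, at -0.22, 0.11 and -0.22 in corn oil and 0.31, 0.26 and 0.81 in CCl4 (exact permutation test, two-sided, p = 0.1, the smallest possible).

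Genes close to a detected miRNA gene were often detected too. Outside the cluster, 87 miRNA genes lay within 10 kb of the gene of a miRNA detected on all arrays, and 40 of them (46.0%) had a product on all arrays while 18 (20.7%) had none on any. In the cluster the counts were 3 on all arrays, 1 on some and 1, Mir501, on none, of 5. Outside the cluster, 30 pairs of such neighbours were both in the main fit, and the median absolute difference between their changes was 0.17 and the largest 1.19. The changes of miR-188-5p and miR-362-3p differed by 2.33, or 3.11 without CCl4 replicate 3 (largest pair outside 1.11). With all probes summed they differed by 1.14, a difference that 2 of the 30 outside pairs exceeded, and by 1.88 without CCl4 replicate 3 (largest pair outside 1.11). As miR-188-5p was chosen for its change, this is a description. The changes of miR-362-3p and miR-500-3p differed by 0.80, and 3 of the 30 outside pairs differed by more. Without CCl4 replicate 3 they differed by 0.63, and 4 pairs differed by more. With all probes summed this difference was 0.46 over all arrays, and 5 pairs differed by more. With the sums and without CCl4 replicate 3 it was 0.28, and 10 pairs differed by more.

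**Figure D4:**
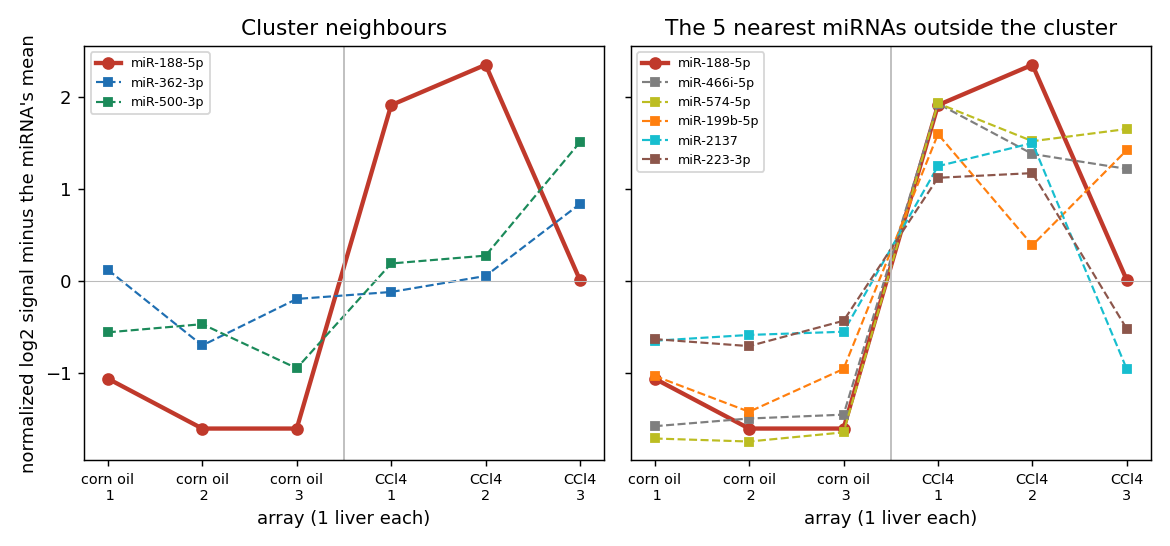
Normalized log2 signal of each miRNA minus its own mean over the 6 arrays, with miR-188-5p in each panel beside the cluster members detected on all arrays and beside the 5 miRNAs of most similar profile. miR-188-5p is high on CCl4 replicates 1 and 2 and lower on replicate 3, where miR-362-3p and miR-500-3p have their highest values.

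The 5 profiles nearest to that of miR-188-5p belonged to miRNAs outside the cluster. This is a description, since miR-362-3p and miR-500-3p were the only members among the 165 miRNAs ranked. The measure also depends on the size of the change, for which miR-188-5p was chosen. Likeness was the mean absolute difference between centred normalized log2 signals over the 6 arrays, and the 5 nearest of 165 miRNAs were miR-466i-5p (0.50), miR-574-5p (0.56), miR-199b-5p (0.76), miR-2137 (0.83) and miR-223-3p (0.83), the last known from myeloid cells. miR-500-3p ranked 22 (1.27) and miR-362-3p ranked 47 (1.44), and without CCl4 replicate 3 they ranked 20 and 47. The nearest miRNAs depended on how the signal was formed. With all probes summed they were miR-2137 (0.22), miR-223-3p (0.23), miR-3096b-3p (0.48), miR-199a-3p (0.53) and miR-142-3p (0.56), of which 2 were among the 5 above, and miR-466i-5p ranked 26 and miR-574-5p ranked 44. miR-500-3p then ranked 43 and miR-362-3p ranked 55. miR-2137 was also lower on the third CCl4 array than on the other CCl4 arrays, with totals of 195 and 175 on CCl4 replicates 1 and 2 and 108 on replicate 3 against 28.1, 29.8 and 28.8 in corn oil. miR-466i-5p was highest there, at 836, 489 and 1786 in CCl4 against 46.1, 43.8 and 55.1 in corn oil.

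Among array miRNAs outside the cluster with a matched sequence, miR-329-3p was the 1 found to share a seed with a member, ACACACC of miR-362-3p. It was detected on CCl4 replicate 3 alone, at 162 with 100% of its spots well above background, the array on which miR-362-3p was also highest. It comes from a gene outside the cluster, Mir329. Just inside the adjusted p threshold of the main comparison lay miR-5119 (1.19, limma adjusted p = 0.031), miR-455-3p (-1.08, 0.031) and miR-199a-5p (1.34, 0.032), and just outside lay miR-378a-5p (-1.31, 0.058), miR-199a-3p (1.28, 0.059) and miR-101b-3p (-1.82, 0.091). miR-500-3p, at 0.094, was close to the latter.

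The normalized table that the authors deposited held 111 miRNAs, of which 1, miR-188-5p, belongs to the cluster. It lacked 55 of the 166 miRNAs detected on all arrays, miR-362-3p and miR-500-3p among them, and 33 of those 55 had over 50% of their spots well above background on all CCl4 arrays. The neighbours could thus be followed in the scanner values only.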

How the data were processed

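Total RNA (100 ng, Cy3) of 6 mouse livers was hybridised to SurePrint G3 Mouse miRNA Release 19.0 arrays. The authors extracted signals with Agilent Feature Extraction 11.0.1.1 (version per the labels). The deposited scanner values are linear intensities after background subtraction, with no scaling between arrays, and an undetected miRNA has a total signal of 0.1. Detection and background flags, the other deposited values used, are 0 or 1. The authors also deposited quantile-normalized intensities of 111 miRNAs, used as an alternative, whose corn oil columns 1, 2 and 3 had the rank order of scanner arrays 2, 3 and 1. The saturated spots numbered 0, and the number of arrays limits the precision.

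Groups came from the sample titles, and control spots were left out. Log2 total signals of 166 miRNAs, those detected on all 6 arrays, were quantile normalized, and limma 3.58.1 (lmFit, eBayes; R 4.3.3) compared CCl4 with corn oil, with Benjamini-Hochberg adjustment. Where an alternative fit or scaling of total signals took in undetected miRNAs, they were given the lowest detected signal of their array. A second limma fit took all 1247 miRNAs, with normexp (offset 50), the median over spots and quantile normalization. It was planned on mean spot signals, but median ones were used, as the scanner columns give. A group with at most 50% of a miRNA's spots well above background on every array has only a bound. For each corn oil array, the bound took the lowest signal among miRNAs well above background, or the miRNA's own signal where that was higher. Folds against the bound compare means and carry no sampling error. Sequences and gene positions are from RefSeq (GRCm38.p6), which matched 1017 of 1247 array miRNAs by name. The scanner header names mm9, and no coordinate of that build is given. On simulated data for 166 miRNAs with 20 changed by 2 (log2), 74.0% were recovered with a median of 1 false call in 50 runs. For 1247 miRNAs with 100 changed, 95.6% were recovered with a median of 8 false calls in 30 runs. These changes were added after the offset and without an outlying array. In the data the change of miR-188-5p in that fit was 0.40. The recovery therefore does not give the power for dim members.

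The text names all members, the 5 miRNAs nearest to miR-188-5p, array miRNAs sharing a seed with a member, 3 miRNAs on each side of the threshold and miR-122-5p. Members and lists were chosen with earlier results of these data known. Alternatives covered background correction, scaling, filters, thresholds, the deposited table, a replicate block, array weights and leaving out each array. The probe sums, with miR-3096b-3p and miR-142-3p, named from them, and miR-532-5p, neighbour pairs and likeness without CCl4 replicate 3, were added after the data were seen. Python 3.11.15 was used with pandas 2.3.3, numpy 2.4.6, matplotlib 3.10.9 and scipy 1.17.1.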

Additional observations from a re-analysis of the deposited data

Results flagged for a closer look

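Signals of partner arms appeared outside the main comparison, on CCl4 arrays and above the level of the corn oil arrays, on none of which these miRNAs were detected. miR-362-5p had a total signal of 7.96 on CCl4 replicate 3, from 8 of 40 spots well above background. miR-532-3p had 2.06 on CCl4 replicate 2, from 2 of 40 spots, and 9.88 on CCl4 replicate 3, from 10 of 40 spots. Its median background-subtracted spot signal on CCl4 replicate 2 (1.06) lay below that on corn oil replicate 2 (1.80). On CCl4 replicate 3 (4.69) it lay above. CCl4 replicate 3 had the most miRNAs detected of all arrays, 334 of 1247.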

How the results depend on the processing

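The total of 20 calls moved to 10 with the median processed spot signal, 6 with normexp background correction, 32 with the filter on at least 1 group, 6 without a filter, 7 with the filter on over 50% of spots, 12 in the deposited table and 31 with array weights. Leaving out 1 array gave 5 to 28 calls. As miR-188-5p was chosen for its change, its own calls below describe the processing and are not a test of it. The 1 cluster member called (miR-188-5p) became 0 with the median processed signal, normexp, the filter on at least 1 group and no filter. The count was also 0 with 75th percentile scaling over detected miRNAs, where 16 of 166 miRNAs were called. So it was with quantile normalization before the filter (15 of 166) and the sum of all probes (14 of 166). With 1 array left out it was 0 to 1 (1 without CCl4 replicate 3, 0 without any other). It was 2, with miR-500-3p, under 75th percentile scaling over all miRNAs (22 of 166), set by the lowest detected signal on all arrays but CCl4 replicate 3. At an unadjusted p under 0.05 it was also 2, again with miR-500-3p (29 of 166). The filter on over 50% of spots left no member. The difference of miR-188-5p was 1.53 with the median processed signal and 0.52 with normexp, and 2.41 to 3.33 when 1 array was left out. The replicate numbers did not pair the samples (correlations of same-numbered deviations -0.18, 0.11 and 0.03). A replicate block gave 6 calls, 0 of them members. The differences of miR-362-3p (0.16 to 1.73) and miR-500-3p (0.45 to 2.53) kept their direction over 18 alternatives, but miR-362-3p was at -0.0031 with the filter on at least 1 group and CCl4 replicate 3 left out. The median of all miRNAs was -0.14 in the main comparison, 0.48 under 75th percentile scaling over all miRNAs and 0.99 without normalization, the settings that gave miR-500-3p 2.02 and 2.53. The causes of these shifts were not tested. The members over 50% of spots on all CCl4 arrays numbered 3 without any 1 array and 4, with miR-532-5p, by positive and significant spots, a laxer flag by which these 4 also reached at least 82.5% on a corn oil array. The 0 called of the 9 others in the fit over all miRNAs stayed 0 under its alternatives, of which 75th percentile scaling turned miR-188-5p to -0.18 with the median of all miRNAs at -0.85. Signals near background in the corn oil livers limit the size of each fold.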
